A study of Mus musculus with 59 samples.

Results

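The transcriptome of brown adipose tissue (BAT) was examined in the 10 mice that carried the BATKO genotype in the thyroid hormone experiment, of 59 mice in the series and 30 in that experiment. They were taken by their labels as 5 mice collected 24 h after thyroid hormone (TH), numbered 7, 8, 9, 10 and 15, and 5 controls numbered 2, 3, 4, 11 and 17. All were male C57BL/6J mice aged 8 to 12 weeks, and both groups had been made hypothyroid with propylthiouracil (PTU), so that the comparison is of PTU with TH against PTU alone within the BATKO genotype. PTU was given in the food and TH as an injection of triiodothyronine (T3) with thyroxine, and each library is 1 mouse. For reference, the same experiment held 4 wild-type (WT) mice 24 h after TH and 4 WT mice on PTU alone, of the same sex, strain, age range and diet. The sources used here do not say which gene BATKO mice lack, in which cells, or with which promoter, and BATKO is therefore used only as a label. The question the comparison addresses is how much of the 24 h hormone response of BAT was left in BATKO mice. The libraries held between 13593987 and 18073627 counts in BATKO mice and between 9594449 and 14615534 in the 8 WT mice.

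TH acts through the nuclear receptors TRα and TRβ, encoded by Thra and Thrb, which bind DNA as partners of RXR and raise transcription of their target genes when T3 is bound. In brown fat the hormone is known to act together with noradrenergic signalling on Ucp1, the uncoupling protein of heat production, and on lipid synthesis, and the deiodinase Dio2 makes T3 locally from thyroxine. Hr, a corepressor, Klf9, a transcription factor, and Thrsp and Me1, which serve lipogenesis, are genes classically induced by T3.

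The classical response element is a pair of AGGTCA half-sites with 4 bases between them. The RefSeq promoter windows of GRCm38.p6, which run from 250 bases before to 50 bases after a gene's start, were searched for it on both strands for 20 genes, which are the 12 known genes and the 8 genes with the largest WT changes described below. Windows were found for 16 of these genes (21 windows), and none held the pair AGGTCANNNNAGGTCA, which was in 0.0152% of all 32851 windows. A single half-site was in 6 windows of 5 genes, against 16.3% of all windows. One stretch per gene is shown, because the levels of these genes are among those the results turn on, up to 50 bases to each side, with the half-site, or its reverse complement TGACCT, in capitals. The first is the organic anion transporter Slco4a1 at its downstream start, followed by Ucp1, the long non-coding RNA Gm32468, the upstream start of the transcription factor Stat5a, and Thrb.
Slco4a1 (chr2:180460762-180460867, plus strand): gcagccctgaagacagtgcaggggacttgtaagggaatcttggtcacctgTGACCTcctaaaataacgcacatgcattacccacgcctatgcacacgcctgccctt
Ucp1 (chr8:83290284-83290347, plus strand): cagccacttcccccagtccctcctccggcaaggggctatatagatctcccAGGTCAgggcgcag
Gm32468 (chr10:93084209-93084285, plus strand): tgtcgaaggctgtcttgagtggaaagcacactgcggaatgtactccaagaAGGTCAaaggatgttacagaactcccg
Stat5a (chr11:100859560-100859655, plus strand): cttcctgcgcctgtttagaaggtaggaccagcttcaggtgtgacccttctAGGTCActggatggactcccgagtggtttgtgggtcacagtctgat
Thrb (chr14:17660726-17660831, plus strand): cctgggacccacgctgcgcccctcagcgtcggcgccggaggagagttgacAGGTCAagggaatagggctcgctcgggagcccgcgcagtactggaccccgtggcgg
The half-site begins 166 bases before the start in Slco4a1, 14 before in Ucp1, 46 before in Stat5a and 184 before in Thrb, and at base 24 of the transcript in Gm32468. The second Stat5a window, whose half-site lies on the minus strand from 44 bases before its start, is not printed. A match of these letters is a description of the window and was not tested as a binding site.

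Before the comparison, the individual mice have to be described, since 3 of the 10 did not lie with their labelled group in several genes that respond to TH in WT mice. Aspg, an asparaginase gene (chromosome 12, 112106679 to 112127559, plus strand), had normalized counts of 329, 262, 1391, 46.3 and 189 in BATKO PTU mice 2, 3, 4, 11 and 17, and of 1136, 1219.9, 1215, 176 and 203 in TH mice 7, 8, 9, 10 and 15. The mouse labelled PTU 4 thus lay with TH mice 7, 8 and 9, and the mice labelled TH 10 and TH 15 lay within the range of the other 4 controls. Bhlhb9, a gene that fell in WT mice, gave the mirror image, with 181, 202, 65.4, 263 and 215 in the controls and 53.5, 58.5, 47.0, 201 and 200.5 after TH. Loxl1, a lysyl oxidase of the extracellular matrix, was at 36.5, 47.0, 122, 24.5 and 21.5 in the controls and 88.3, 143, 112, 26.6 and 28.5 after TH, again with PTU 4 beside TH 7, 8 and 9. Id2, an inhibitor of helix-loop-helix factors, showed the same split, with 155, 149, 303, 154 and 132 in the controls and 378, 277, 354, 168 and 147 after TH. In WT mice, Aspg rose from between 55.0 and 99.0 to between 749 and 1067 24 h after TH and Bhlhb9 fell from between 344 and 559.7 to between 36.0 and 67.8. Loxl1 rose from between 33.4 and 64.6 to between 681 and 1189.9 and Id2 from between 111 and 166 to between 542 and 4053 in WT mice. These 4 genes were chosen after their values were seen. Slco4a1, Gpat3 and Car3, which were picked by their WT change and a called interaction, showed a similar split. Some other genes called in WT mice did not. In Chchd7 and Gm16464, for example, all 5 treated BATKO mice lay on the WT side of all 5 controls, and Ucp1 was highest in TH 15. Chchd7 and Gm16464 were picked for their low p in BATKO mice, which favours groups that do not overlap. The share of counts from the mitochondrial genome was 42.8% in PTU 4, 40.0% to 43.4% in TH 7, 8 and 9, and 43.1% to 51.3% in the other 6 mice. The mice were kept in the groups their labels give, they were not regrouped, and whether any label is wrong was not tested. Results are given with all 10 mice, and values without PTU 4 are given for several genes in which it was high. A fit without all 3 of these mice was not run, because they stood out by the very genes that the comparison is about.

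**Figure D1:**
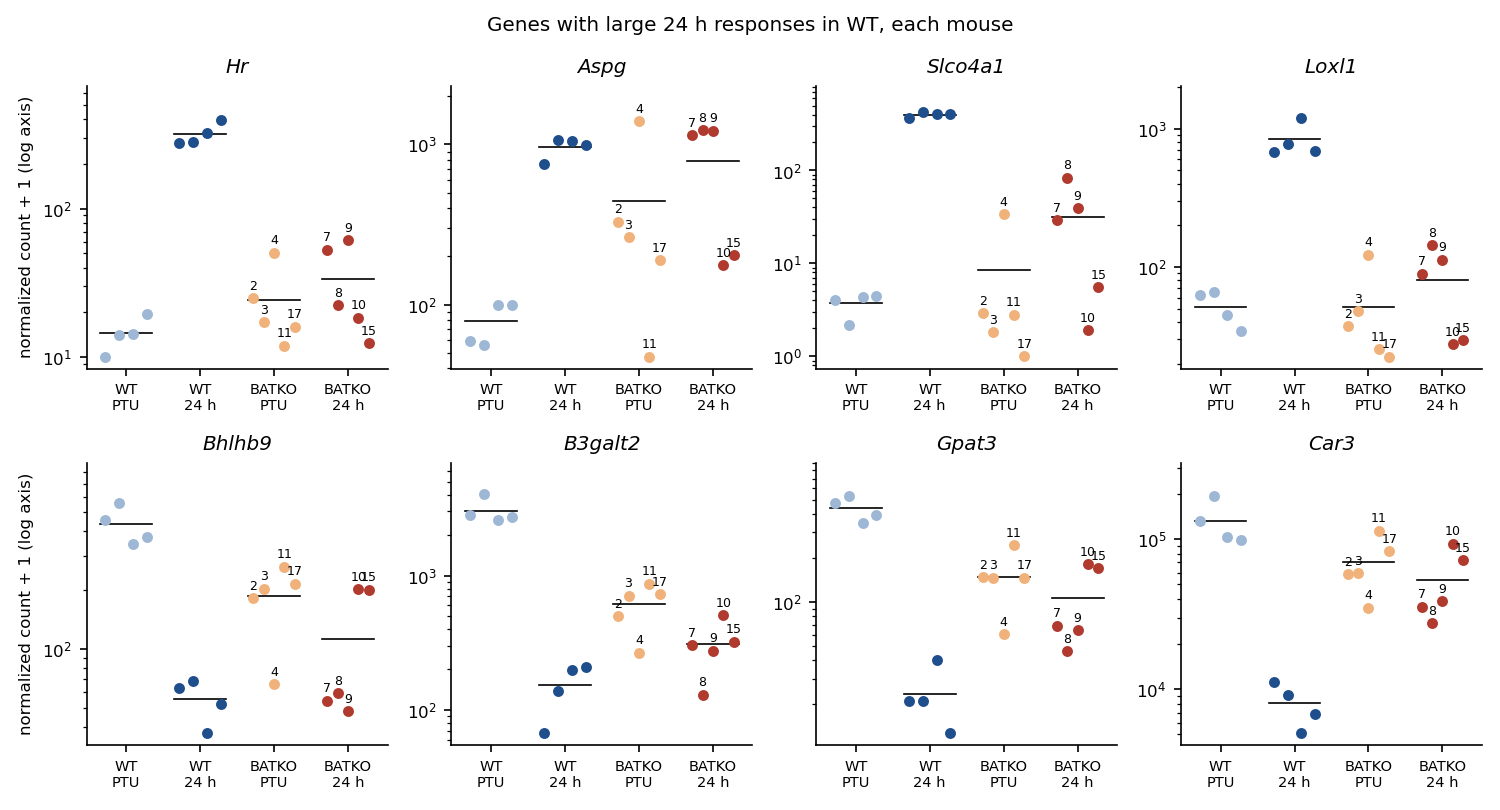
Normalized counts (plus 1, log axis) of 8 genes that changed strongly in WT mice 24 h after TH, with 1 point per mouse, the BATKO mice numbered as in their labels and the group mean as a line. In BATKO mice, PTU 4 sits with TH 7, 8 and 9 in Aspg, Slco4a1, Loxl1, Bhlhb9, Gpat3 and Car3, and TH 10 and TH 15 sit near the other controls.

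Skeletal muscle RNA varied between the BATKO libraries as well, but along neither the treatment nor this order. The summed level of 14 muscle markers, which include Myh4, Ckm and Acta1, was 442, 1235, 118, 62.3 and 44.6 CPM (counts scaled to the library's size) in PTU 2, 3, 4, 11 and 17, and 428, 200.1, 43.8, 50.6 and 445 in TH 7, 8, 9, 10 and 15 (two-sided exact permutation test over mice, p = 0.683). These genes held 12 of the 30 largest loadings at 1 end of the first principal component of the 10 mice, the end that rises with muscle RNA. The component carried 27.2% of the variance, and the loadings at its other end are not given. Mitochondrial genes held 45.5% ± 3.47 of the counts in the controls and 44.6% ± 3.61 after TH (SD, n = 5 each, two-sided exact permutation test, p = 0.722). The 14 brown adipocyte markers all passed the limit on low counts, with a summed level of 11714 to 13753 CPM in the controls and 10649 to 17073 CPM after TH. In bulk tissue, fewer cells of a type and less RNA per cell cannot be told apart.

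BATKO and WT libraries of the same table also differed in ways unrelated to TH. The mitochondrial gene mt-Atp6 had at most 2 raw counts in each of the 8 WT mice and normalized counts of at least 400010.0 in each BATKO mouse. In all, 223 genes had at most 3 counts in every WT mouse and above 50 normalized counts in every BATKO mouse. No gene showed the reverse under the same limits. Genotype and library cannot be told apart here, so levels are compared only within a genotype, and WT and BATKO are compared only by their responses, each against its own controls.

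No gene passed the threshold in BATKO mice 24 h after TH. Of 14178 genes with a mean normalized count above 10, edgeR's quasi-likelihood test called 0 higher and 0 lower at an adjusted p of 0.05, a percentage of 0%. The lowest adjusted p was 0.449, and 673 genes (4.75%) had an unadjusted p under 0.05, where 709 of 14178 are expected by that limit alone. DESeq2 also called 0 genes, with 687 at an unadjusted p under 0.05. Fits of only the 10 BATKO mice called 0 genes with either tool, with 674 (edgeR) and 617 (DESeq2) at an unadjusted p under 0.05. Groups did not overlap for 41 genes higher after TH (0.289% of the genes tested) and for 61 genes lower (0.43%). In WT mice, with fewer mice per group, the same fit called 2256 genes higher (15.9%) and 1983 lower (14%), 4239 in all (29.9%). The median standard error of a log2 fold change was 0.16 in BATKO mice and 0.19 in WT mice. For 13151 genes (92.8%) the 95% interval of the BATKO change lay within 2-fold in both directions.

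The difference between the genotypes was tested directly. In 726 genes (5.12%) the response was more positive in BATKO than in WT mice, and in 1014 genes (7.15%) it was more negative, 1740 genes in all (12.3%). Of the 2256 genes called higher in WT mice, 1000 had a different response in BATKO mice, and of the 1983 called lower, 708. All of these had the weaker or opposite response in BATKO mice, a side that the choice of genes by their WT change, which also enters the difference, largely fixes.

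Genes that responded in WT mice leaned, as a list, slightly to the same side in BATKO mice, although none was called. WT and BATKO comparisons share no mice, and the lists were chosen on the WT values. Genes higher in WT mice had a median log2 fold change of 0.74 there and of 0.061 in BATKO mice, where 1489 of 2256 (66.0%) were above 0, against 48.5% of all genes tested and a median of -0.0060 over all genes. Genes lower in WT mice had medians of -0.66 and -0.091, and 1448 of 1983 (73.0%) were below 0 in BATKO mice. The median in BATKO mice was further from 0 where the WT change was larger. It was 0.15 for the 688 genes that rose at least 2-fold in WT mice (WT median 1.40) and 0.31 for the 158 that rose at least 4-fold (WT median 2.65). For the 507 and 86 genes that fell by these factors it was -0.21 and -0.29, with WT medians of -1.35 and -2.43. At an unadjusted p under 0.05 in BATKO mice were 20 of the 158 (12.7%) and 5 of the 86 (5.81%), against 4.75% of all genes.

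For most genes with a large WT change, the fitted BATKO change was smaller, with the mice in the groups their labels give. The slope of the BATKO on the WT log2 fold change was 0.114 over the 4239 genes called in WT mice, as a description across genes that are not independent of each other. For 155 of the 158 genes that rose at least 4-fold in WT mice, and 85 of the 86 that fell at least 4-fold, the 95% interval of the BATKO change lay short of the WT value, which itself has an error that this count leaves aside. The interaction was called for 132 and 68 of them. Over all genes tested, the interval lay short of the WT value in 47.7% and the interaction was called in 12.3%. The choice of genes by a large WT change favours both counts. Among the largest WT rises, the calls for Gm32468, 9030619P08Rik and Slco4a1 were lost without PTU 4, and of the 12 known genes described below all but Hr, Desi1 and Trp53inp2 had no called interaction with all mice. Treated BATKO mice all lay beyond all controls in the WT direction in 8 of the 2256 genes called higher and 24 of the 1983 called lower in WT mice, in 0 of 688 and 4 of 507 with at least a 2-fold WT change, and in 0 of 158 and 0 of 86 with at least a 4-fold one. Over all genes tested the shares were 0.289% for higher and 0.43% for lower values, at which under 1 gene would stand in each of the last 2 lists. The falls (24 of 1983 and 4 of 507) lay above their share. The rises (8 of 2256 and 0 of 688) lay near or below theirs, and none of this was tested.

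**Figure D2:**
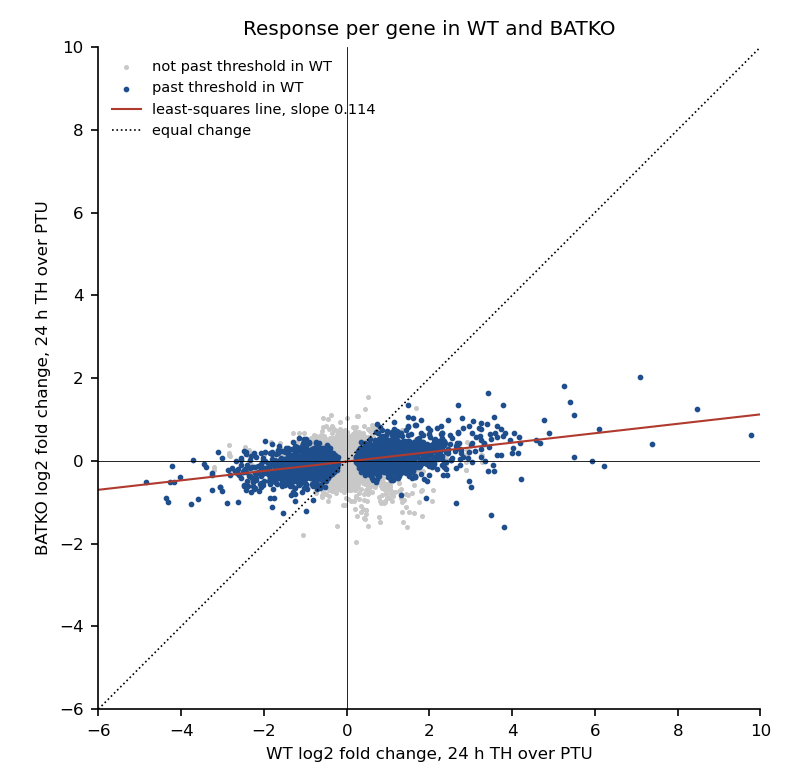
Log2 fold change 24 h after TH in WT mice (horizontal) and BATKO mice (vertical) for the 14178 genes tested, with the 4239 genes called in WT mice in blue. The line of slope 0.114 was fitted to those 4239 genes (r = 0.53 across genes, 0.28 over all genes tested), and lies far from the dotted line of equal change.

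Mouse by mouse, 3 of the 5 treated mice and 1 control stood above the rest. An index was computed for each mouse as the mean log2 CPM of the genes called higher in WT mice minus that of the genes called lower, set to a mean of 0 in the controls of its own genotype. It was 1.71 ± 0.10 (SD, n = 4) in WT mice 24 h after TH, and 0.69 ± 0.11 at 3 h, 1.00 ± 0.15 at 6 h and 1.19 ± 0.12 at 12 h (SD, n = 4 each), of which only the 24 h and control mice chose the genes. In BATKO mice it was -0.027, 0.021, 0.36, -0.27 and -0.090 in PTU 2, 3, 4, 11 and 17, and 0.36, 0.38, 0.42, -0.17 and -0.022 in TH 7, 8, 9, 10 and 15. The group mean after TH was 0.19 ± 0.27 (SD, n = 5), which is less than the spread between mice, and no test is given for this score. TH 7, 8 and 9 and PTU 4 held the 4 highest values, and TH 10 and TH 15 lay among the other controls. The highest BATKO mouse, at 0.42, was below the lowest WT mouse at 3 h, at 0.59. Without PTU 4 the median BATKO change of the genes called higher in WT mice was 0.12, with 76.3% above 0, and that of the genes called lower was -0.11, with 75.7% below 0. Without PTU 11, the control with the lowest index, these were 0.018 (55.0%) and -0.069 (66.0%).

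**Figure D3:**
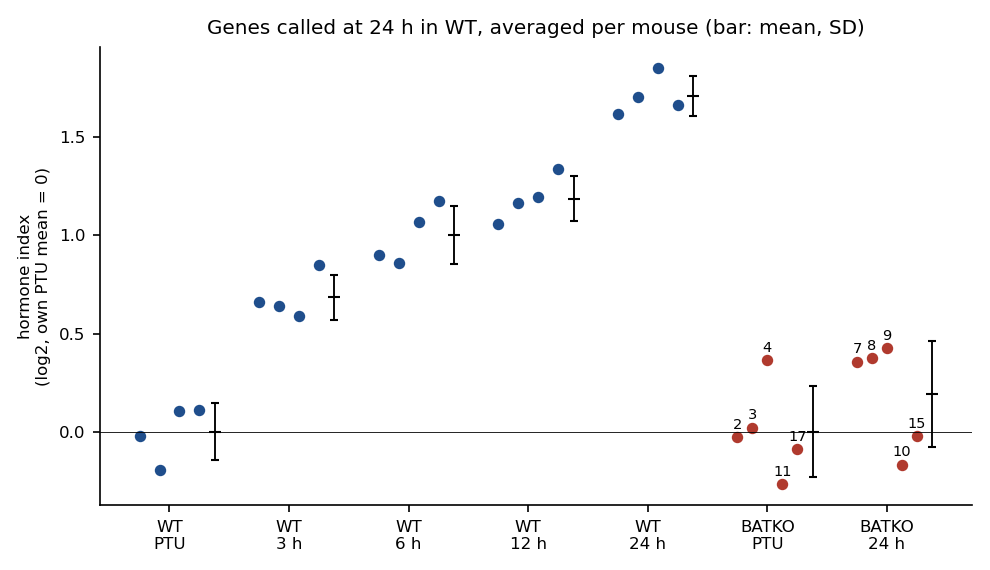
Index of the genes called 24 h after TH in WT mice, 1 point per mouse, as the mean log2 CPM of genes called higher minus genes called lower with the PTU mean of each genotype at 0, and the mean and SD of each group beside the points. WT mice rise to 1.71 at 24 h, while BATKO mice lie between -0.27 and 0.42, with PTU 4 beside TH 7, 8 and 9.

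The genes with the largest WT rises show how far single mice went. Slco4a1 (chromosome 2, 180456245 to 180474867, plus strand), whose product carries thyroid hormones among other anions, had normalized counts of 3.01, 1.20, 3.32 and 3.46 in WT controls and 369, 427, 399 and 399.8 24 h after TH. In BATKO mice it was at 1.92, 0.810, 32.7, 1.82 and 0 in the controls and 28.4, 82.4, 38.4, 0.917 and 4.56 after TH. The change was not past the threshold (log2 fold change 2.01 ± 0.70 (SE), edgeR adjusted p = 0.963), and it differed from the WT change (interaction term -5.07, adjusted p = 0.00824). Without PTU 4, whose 32.7 was the only control value above 2, the fitted BATKO log2 fold change was 4.67 (edgeR adjusted p = 0.149), against controls with 0 to 2 raw counts, and the interaction was no longer called (-2.42, adjusted p = 0.502). Without TH 8, the highest treated mouse, the BATKO log2 fold change was 1.25 (edgeR adjusted p = 0.9999) and the interaction term -5.83.

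Gm32468, a long non-coding RNA with the largest rise in WT mice, went from at most 2 raw counts per WT control to normalized counts of 1261, 1129, 611 and 1040.0, at least 322-fold above the floor of 3 counts per library. In BATKO mice it was at 0, 0, 10.1, 0 and 0 in the controls and 7.29, 0.886, 7.68, 0 and 0 after TH. Only PTU 4, TH 7 and TH 9 of the 10 BATKO mice were above 1. The pseudogene 9030619P08Rik rose at least 71.3-fold above the floor in WT mice, and was at 0, 0, 3.35, 0 and 0 in the BATKO controls and at 4.05, 3.54, 0.960, 0 and 0 after TH. Both interactions were called with all mice (adjusted p = 0.0015 and 0.0119, edgeR) and were lost without PTU 4 (terms of -4.996 and -4.48, adjusted p = 0.977 and 0.957). In both genes all other BATKO controls were at 0, so that no fold is given for them in BATKO mice. Fndc5, which encodes the precursor of irisin, was at 2.88, 5.67, 16.8, 1.82 and 0 in the BATKO controls and at 24.3, 8.86, 11.5, 0 and 1.14 after TH. In WT mice it rose from between 1.20 and 5.02 to between 122.7 and 375 normalized counts (interaction term -5.32, adjusted p = 0.00182). Its BATKO log2 fold change was 0.77, and 1.80 without PTU 4, with no call in either fit (edgeR adjusted p = 0.97 and 0.69). These genes had few counts in BATKO mice, which limits the precision of their fold changes. Apln, which encodes the peptide hormone apelin and was named after its values were seen, was at 0.961, 4.86, 14.2, 0 and 4.68 in the BATKO controls and at 24.3, 15.1, 37.4, 7.33 and 5.70 after TH (log2 fold change 1.81 ± 0.57 (SE), edgeR adjusted p = 0.946). Its log2 fold change ran from 1.39 without TH 9 to 2.71 without PTU 4, with no call. In WT mice Apln rose from between 4.15 and 8.04 to between 126 and 329.

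The genes with the largest WT falls showed a similar order of mice in reverse, but in B3galt2 TH 15 lay below every control but PTU 4. B3galt2 (chromosome 1, 143640664 to 143654614), a galactosyltransferase gene that lies over Cdc73 on the opposite strand, was at 496, 706, 265, 867 and 726 in BATKO controls and 302, 128, 275, 504 and 320.1 after TH. This change had the lowest p of the 8 genes (log2 fold change -1.0, 95% interval -1.65 to -0.35, edgeR adjusted p = 0.963, unadjusted p = 0.00393). In WT mice B3galt2 fell from between 2574 and 4037 to between 66.1 and 206, and the responses differed (interaction term 3.31, adjusted p = 6.02e-05). Gpat3, a glycerol-3-phosphate acyltransferase of triglyceride synthesis, was at 148, 146, 59.5, 243 and 146 in the controls and 68.1, 45.2, 63.3, 182 and 169.7 after TH. Car3, a carbonic anhydrase abundant in adipose tissue, was at 58661, 59324, 34967, 114124 and 82892 in the BATKO controls and at 35569.7, 27591, 38696, 93347 and 72539.8 after TH. In both genes TH 7, 8 and 9 were lower than all controls but PTU 4, and TH 10 and TH 15 were above most controls. Their log2 fold changes of -0.50 and -0.39 did not pass the threshold (edgeR adjusted p = 0.963 and 0.969), against -4.26 and -4.03 in WT mice. Without 1 mouse they ran from -0.79 to -0.25 in Gpat3 and from -0.67 to -0.14 in Car3, in both without TH 10 and without PTU 11. Nabp1, a single-stranded DNA binding protein gene, was at 1556, 1220.5, 729, 3023 and 2144 in the BATKO controls and at 644, 568, 451, 1719 and 4393 after TH, with both the lowest and the highest of the 10 values in treated mice. Its BATKO log2 fold change of -0.16 was -1.04 without TH 15, again with no call.

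The TH receptor genes were present in every BATKO mouse. Thra was at 331, 356, 406, 365 and 330.4 in BATKO controls and 352, 329.6, 333, 317 and 278 after TH (log2 fold change -0.15, 95% interval -0.36 to 0.060, edgeR adjusted p = 0.963). Thrb was at 235, 264, 391, 369.5 and 287 in the BATKO controls and at 372, 502, 377, 346 and 277 after TH (log2 fold change 0.28, 95% interval -0.00070 to 0.55, edgeR adjusted p = 0.963, unadjusted p = 0.0505). The Thrb change ran from 0.15 without TH 8 to 0.38 without PTU 4, with no call. Counts of both genes cover whole genes and all cells of the tissue, and do not show whether an exon was missing in any cell type. Thra lies over Nr1d1 on the opposite strand, and the strand setting of the counting is not given in the sources used here. Of 18 tested genes of TH signalling, such as transporters, deiodinases, coregulators and RXR genes, 0 were called in BATKO mice and 3 had an unadjusted p under 0.05 (4.75% of all genes did), with a median of -0.0056. In WT mice, 3 of them rose and 5 fell, against 15.9% and 14% of all genes. Rxrb, a receptor partner, rose in WT mice (log2 fold change 1.24, adjusted p = 2.67e-06) and was at 140.3, 153, 195, 121 and 136 in the BATKO controls and at 170.2, 149, 189, 154 and 132 after TH. The responses differed (interaction term -1.15, adjusted p = 0.000997).

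**Figure D4:**
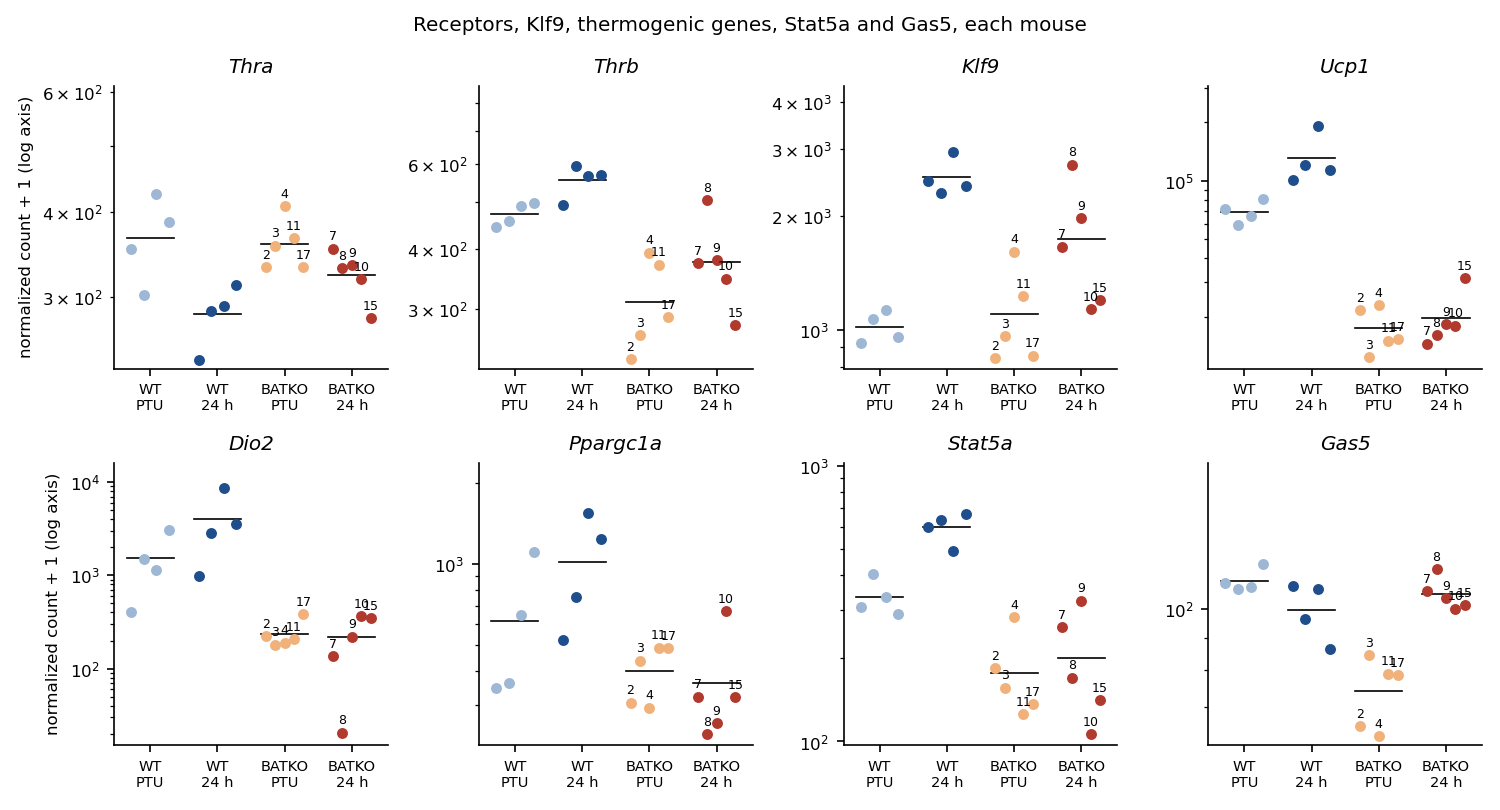
Normalized counts (plus 1, log axis) of the TH receptor genes, Klf9, thermogenic genes, Stat5a and the RNA gene Gas5, with 1 point per mouse, BATKO mice numbered and the group mean as a line. BATKO groups overlap in each panel but that of Gas5, in which all 5 treated mice lie above all 5 controls.

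Klf9 stood out among genes known to respond to T3. It was at 841, 960.5, 1607, 1226 and 854 in BATKO controls and 1656, 2728, 1968, 1135 and 1198 after TH, so that the 3 highest values were those of TH 7, 8 and 9, followed by PTU 4. It had rank 10 among 14178 genes by p (log2 fold change 0.66, 95% interval 0.30 to 1.02, edgeR adjusted p = 0.898, unadjusted p = 0.000735). In WT mice it rose from between 924 and 1128 to between 2292 and 2954 (log2 fold change 1.31, adjusted p = 1.10e-05), and the difference between genotypes did not pass the threshold (interaction term -0.65, adjusted p = 0.103). Without PTU 4 its BATKO change was 0.84 (edgeR adjusted p = 0.154), and without TH 8, the highest mouse, it was 0.44 and the interaction was called (-0.87, adjusted p = 0.0118).

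Hr (chromosome 14, 70552212 to 70573548) rose from between 9.04 and 18.4 to between 275 and 398 normalized counts in WT mice. In BATKO mice it was at 24.0, 16.2, 49.4, 10.9 and 15.0 in the controls and 51.9, 21.3, 60.5, 17.4 and 11.4 after TH (log2 fold change 0.50, 95% interval -0.29 to 1.30, edgeR adjusted p = 0.964), a smaller response than in WT mice (interaction term -4.07, adjusted p = 4.59e-05). PTU 4, TH 7 and TH 9 held its 3 highest BATKO values, and its log2 fold change ran from 0.18 without TH 9 to 0.999 without PTU 4, with no call. Thrsp was between 16802 and 39008 in the BATKO controls and between 19629 and 34142 after TH. Me1 was between 5741 and 10194 in the BATKO controls and between 5421 and 11924 after TH. Both groups overlapped widely in these genes, with log2 fold changes of 0.072 and -0.10 that did not pass the threshold (edgeR adjusted p = 0.993 and 0.987). Neither interaction was called (adjusted p = 0.21 and 0.287). Of the 18 classical T3-induced genes tested, 0 were called in BATKO mice, 10 were above 0 and the median was 0.025, against 13 called higher in WT mice and a median of 0.91. The interaction was called in 8 of the 18, with a negative term in each. Of all genes, 48.5% were above 0 in BATKO mice, 15.9% were called higher in WT mice and 7.15% had a called negative interaction. Bcl3, a coregulator of NF-κB, was at 46.1, 34.8, 72.1, 30.0 and 31.8 in the BATKO controls and at 74.6, 39.9, 57.6, 22.0 and 64.9 after TH. It rose from between 59.9 and 80.1 to between 431 and 611 in WT mice (interaction term -2.50, adjusted p = 8.79e-05).

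Thermogenic genes did not change past the threshold in BATKO mice. Ucp1 was at 21501, 12401, 22843, 15046 and 15277 in the controls and 14506, 16054, 18348, 17962 and 31618 after TH (log2 fold change 0.18, 95% interval -0.25 to 0.61, edgeR adjusted p = 0.979), with the highest value in TH 15. In WT mice it rose from between 58896 and 80187 to between 100459 and 191139 (log2 fold change 0.93, adjusted p = 0.0035). The interaction was not called (-0.75, adjusted p = 0.117), but it was without TH 15 (-1.01, adjusted p = 0.0259). Dio2 was at 220.1, 179.8, 189, 204 and 381 in the BATKO controls and at 135, 19.5, 219.8, 361 and 347 after TH, with the lowest value in TH 8. Ppargc1a, a coactivator of mitochondrial biogenesis, was at 306, 438, 292, 488 and 486 in the BATKO controls and at 322, 234, 256, 669 and 321 after TH, with the highest value in TH 10. In WT mice the changes of Dio2 (log2 fold change 1.38, adjusted p = 0.065) and Ppargc1a (log2 fold change 0.73, adjusted p = 0.155) did not pass the threshold, and neither did their interactions (adjusted p = 0.207 and 0.274). The 95% intervals of their BATKO log2 fold changes ran from -1.20 to 0.95 and from -0.86 to 0.55. In Dio2 a change of about 2-fold in either direction therefore remained possible. Such an interval is not a limit of detection. Of 33 thermogenesis genes tested, 0 were called in BATKO mice and 16 were above 0, against 12 called higher and 7 lower in WT mice (15.9% and 14% of all genes, with 48.5% above 0 in BATKO mice). Gpd2, the mitochondrial glycerol phosphate dehydrogenase, was between 3331 and 6976 in the BATKO controls and between 3349.9 and 7128 after TH, and rose in WT mice (log2 fold change 1.46, adjusted p = 1.12e-06, interaction term -1.33, adjusted p = 0.000808). Cidea, a lipid droplet protein of brown fat, fell in WT mice (log2 fold change -0.85, adjusted p = 1.06e-05) and had a BATKO log2 fold change of -0.036 (interaction term 0.82, adjusted p = 0.00226).

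Stat5a and Desi1, which the study's text names, and Trp53inp2, taken for a gene printed there as Trp53ind, were not called either. Stat5a was at 184, 155, 281, 124 and 136 in BATKO controls and 259, 169, 323, 105 and 140.1 after TH (log2 fold change 0.18, 95% interval -0.27 to 0.64, edgeR adjusted p = 0.98), with PTU 4 second to TH 9. Its interaction was called only without TH 9 (-0.90, edgeR adjusted p = 0.0487). Desi1, a deSUMOylating peptidase gene, was at 109, 172, 90.5, 144 and 129 in the BATKO controls and at 103, 94.8, 129, 103 and 98.0 after TH, while it rose in WT mice (log2 fold change 1.42, adjusted p = 3.70e-05, interaction term -1.72, adjusted p = 0.000749). Trp53inp2, an autophagy regulator, was at 2193, 1658, 2424, 1341 and 1658 in the BATKO controls and at 2384, 1499.8, 2037, 1134 and 1966 after TH (log2 fold change -0.040, 95% interval -0.38 to 0.30, edgeR adjusted p = 0.998), and its response differed from that in WT mice (interaction term -1.01, adjusted p = 0.00719).

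Across the lists of metabolic genes, 0 members were called in BATKO mice. In WT mice 29.9% of all genes were called, 15.9% higher and 14% lower, beside which the counts of each list stand. Of 22 lipogenesis genes, 8 rose and 2 fell in WT mice, with medians of 0.52 in WT and -0.030 in BATKO mice. Slc25a1, the mitochondrial citrate carrier, fell in WT mice (log2 fold change -1.20, adjusted p = 4.36e-05) and was among the BATKO genes with an unadjusted p under 0.05 (log2 fold change -0.49 ± 0.18 (SE), edgeR adjusted p = 0.963). Of 30 genes of glucose uptake and glycolysis, 13 rose and 3 fell in WT mice (median 0.41, BATKO median -0.046), and of 22 heat shock protein genes, 12 rose and 0 fell (median 0.89, BATKO median -0.055). Hspb1, a small heat shock protein, was between 248.9 and 340.3 in the BATKO controls and between 303 and 424 after TH, against a WT log2 fold change of 1.60 (interaction term -1.39, adjusted p = 0.0184), a call lost without the WT mouse B28 (-1.15, adjusted p = 0.0576). Of 25 genes of triglyceride synthesis and lipid droplets, 22 were below 0 in BATKO mice with a median of -0.20 (-0.26 to -0.097 without 1 mouse, with 2 to 8 above 0), against 4 called higher and 7 lower in WT mice (median -0.12), of which the rises were close to the share of all genes. Cidec, a lipid droplet protein that fell in WT mice (log2 fold change -2.34, adjusted p = 1.58e-08), was at 6344, 5229, 4288, 7153 and 6185 in the BATKO controls and at 3587, 4223, 3419, 5074 and 6461 after TH, with TH 15 above 4 of the 5 controls and the other treated mice below at least 4 of them. Adipoq, which encodes adiponectin, fell in WT mice (log2 fold change -2.13, adjusted p = 5.17e-11) and was between 9186 and 14695 in the BATKO controls and between 8277 and 12928 after TH (interaction term 2.00, adjusted p = 2.46e-07).

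Some lists leaned to one side in BATKO mice without a call, beside 48.5% of all genes above 0. Of 84 cytosolic ribosomal protein genes, 80 were above 0 with a median log2 fold change of 0.15, and of 84 nuclear genes of the respiratory chain, 74 with a median of 0.12. The summed level of the ribosomal list was 2412, 2831, 2309, 2812 and 2606 CPM in PTU 2, 3, 4, 11 and 17, and 2594, 3251, 2819, 2994 and 2597 CPM in TH 7, 8, 9, 10 and 15, so that the groups overlapped. Members of such a list move together from mouse to mouse, and their number does not add replicates. The interferon-stimulated list had a median of 0.27 (0.17 to 0.43 without 1 mouse, 20 of 26 above 0, WT median -0.060) and the immediate early genes one of 0.35 (15 of 23, WT median -0.34). The immediate early genes, which respond to handling within minutes, were summed at 381, 1292, 221, 384 and 281 CPM in the controls and 504, 767, 1120, 387 and 219.9 CPM after TH, and leaving out 1 mouse moved their median between -0.083 and 0.71. Of 12 endothelial markers, 12 were above 0 with a median of 0.13, and of 12 fibroblast and progenitor markers, 3 were, with a median of -0.23 (-0.34 to -0.10 without 1 mouse). The summed endothelial level was 578 to 660.4 CPM in the controls and 606 to 838 CPM after TH. The 14 skeletal muscle markers leaned furthest, with 0 above 0 and a median of -0.78, and leaving out 1 mouse moved this median between -1.29 and 0.73. In WT mice their median was 1.08 with 0 of 14 called, and their summed level was 112 to 869.5 CPM in the controls and 369.6 to 1567 CPM at 24 h. The part of muscle RNA in the WT response and in the interaction counts was not tested. Leaving out 1 mouse moved the ribosomal median between 0.11 and 0.19, the respiratory chain median between 0.072 and 0.16 and the endothelial median between 0.079 and 0.21.

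**Figure D5:**
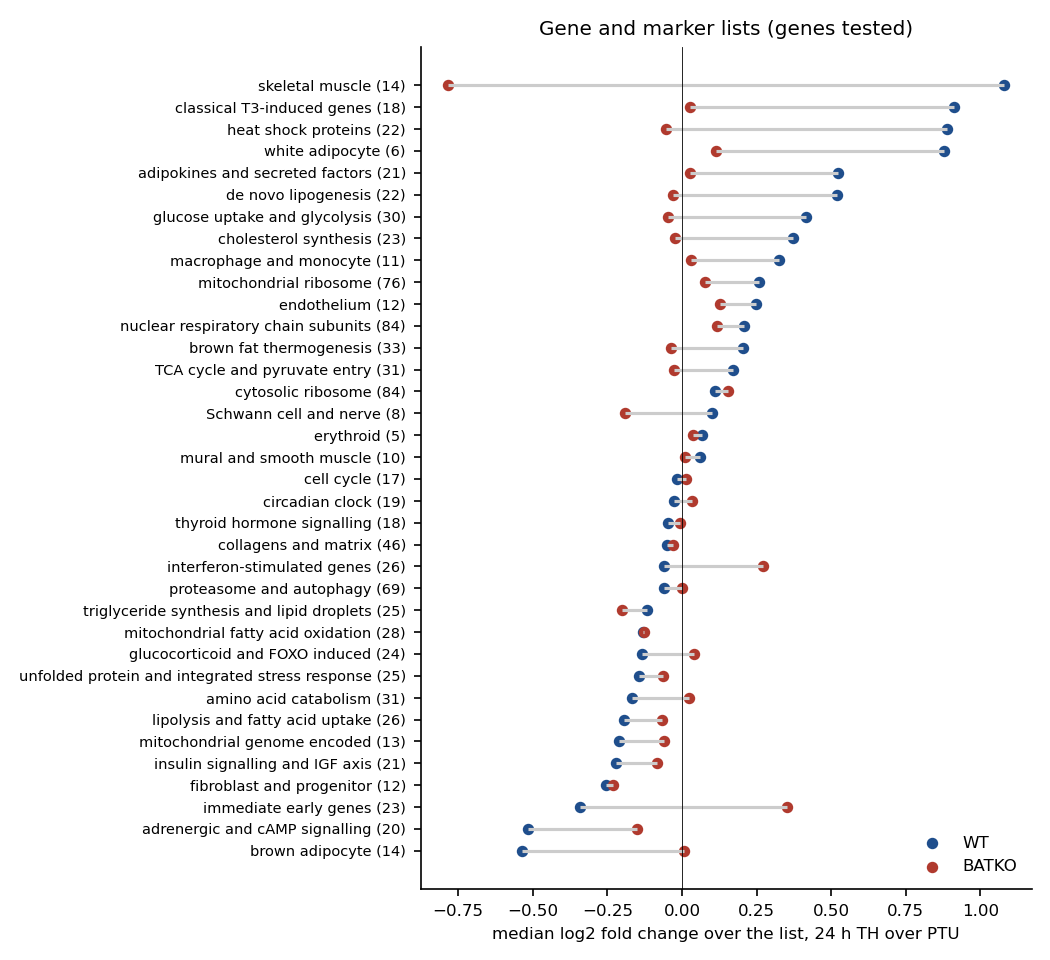
Median log2 fold change 24 h after TH in WT (blue) and BATKO mice (red) for each gene or marker list with at least 5 genes tested, with the number of genes tested in brackets. Classical T3-induced genes have a median of 0.91 in WT mice and of 0.025 in BATKO mice, and the muscle list, which varied between single mice, has the widest gap of the lists shown.

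Of the 12 genes with the lowest p in BATKO mice, Klf9, Chchd7, Galk2, Gm16464 and Gm8388 were also called in WT mice, where 29.9% of all genes were. The 12 were picked after their values were seen and none passed the threshold. Gas5, an RNA gene that hosts small nucleolar RNAs, was at 64.4, 83.4, 62.0, 78.1 and 77.7 in the controls and 105, 114, 103, 99.0 and 100.2 after TH (log2 fold change 0.51, 95% interval 0.28 to 0.75, edgeR adjusted p = 0.5), with groups that did not overlap. It had a WT log2 fold change of -0.15 (adjusted p = 0.39), and the interaction was called (0.67, edgeR adjusted p = 0.0102), with Gas5 picked for its low p in BATKO mice, a change that also enters the interaction. Unlike in Aspg, Bhlhb9, Loxl1 and Id2, TH 10 and TH 15 lay with TH 7, 8 and 9, and PTU 4 had the lowest value. Dancr, another snoRNA host gene, was at 20.2, 22.7, 26.8, 28.1 and 19.7 in the BATKO controls and at 27.6, 47.8, 26.9, 43.1 and 45.6 after TH (edgeR adjusted p = 0.932). It rose in WT mice (log2 fold change 0.72, adjusted p = 0.00823), and its interaction was not called (-0.029, adjusted p = 0.976). Zfas1, a further one, was at 51.9, 47.0, 56.2, 26.3 and 44.9 in the BATKO controls and at 54.3, 60.2, 78.7, 58.7 and 67.2 after TH (edgeR adjusted p = 0.946). Zfas1 had a WT log2 fold change of -0.13 and an interaction of 0.62 that was not called (adjusted p = 0.0621), but was without PTU 4 (adjusted p = 0.0422) and without TH 7 (0.0456). Both were chosen after Gas5, and their groups overlapped. Chchd7, a mitochondrial intermembrane space protein gene, was at 164, 177, 193, 181 and 198 in the BATKO controls and at 224, 243, 239.9, 263 and 229 after TH (log2 fold change 0.39 ± 0.095 (SE), edgeR adjusted p = 0.761), also without overlap, and rose in WT mice (log2 fold change 0.50, adjusted p = 0.000356).

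Lower values were seen for Galk2, an N-acetylgalactosamine kinase gene, at 157, 125, 163, 139.8 and 148 in the controls and 113, 71.8, 101, 113 and 125 after TH (log2 fold change -0.48 ± 0.12 (SE), edgeR adjusted p = 0.761), with TH 15 level with PTU 3. Galk2 also fell in WT mice (log2 fold change -0.51, adjusted p = 0.00631). Raver2, an RNA-binding protein gene, was at 56.7, 56.7, 59.5, 54.5 and 51.5 in the BATKO controls and at 40.5, 29.2, 33.6, 44.0 and 29.6 after TH. Pigu, a subunit gene of the GPI transamidase, was at 105, 104, 116, 117 and 132 in the BATKO controls and at 77.0, 70.9, 84.5, 85.3 and 99.1 after TH. In both genes all treated mice lay below all controls, with log2 fold changes of -0.65 and -0.47 (edgeR adjusted p = 0.761 and 0.898). Raver2 had a WT log2 fold change of 0.11 and a called interaction (-0.76, adjusted p = 0.034), to which the rule that picked it also applies, and which was lost without any 1 of PTU 4, TH 8, TH 15 and WT mice B5, B26 and B28 (adjusted p = 0.0516 to 0.0706) and without the filter (0.0878). Of the 12 lowest p, 5 belonged to processed pseudogenes, all lower after TH, whose counts are uncertain because they share sequence with other genes. The share of processed pseudogenes among all genes tested was not determined, so whether 5 of 12 is unusual cannot be told. Gm13991 was at 122, 103, 93.9, 78.1 and 75.8 in the BATKO controls and at 70.5, 47.8, 78.7, 44.0 and 46.7 after TH (log2 fold change -0.71 ± 0.15 (SE), edgeR adjusted p = 0.449), and it was the single gene called when TH 9 was left out (log2 fold change -0.84, edgeR adjusted p = 0.0478). Gm16464, which lies within Trim30d, was at 47.1, 49.4, 46.9, 61.7 and 47.7 in the BATKO controls and at 32.4, 26.6, 25.9, 37.6 and 38.7 after TH (log2 fold change -0.65 ± 0.14 (SE), edgeR adjusted p = 0.449), and had a WT log2 fold change of -0.64 (adjusted p = 0.00139). The other 3 were Gm4939, Gm5990 and Gm8388, with log2 fold changes of -0.71, -0.76 and -0.64. The last of the 12 was Ccdc107, at 82.6, 73.7, 51.1, 70.8 and 67.4 in the BATKO controls and at 89.2, 100.1, 82.5, 108 and 115 after TH, which lies over the RNA gene Rmrp on the opposite strand.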

How the data were processed

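Brown adipose tissue RNA was sequenced by the authors with the Lexogen SENSE total RNA kit on an Illumina sequencer. Reads were aligned to GRCm38 (mm10) with Bowtie2 (2.3.2.2 per the submitters' processing notes), alignments of a quality below 10 were removed, and reads per gene were counted with htseqcount. The gene annotation and the strand setting are not given in the sources used here. The authors deposited raw counts per gene, not normalized, for 30 mice of the TH experiment (55341 genes, 0 columns without a sample), with total counts of 13593987 to 18073627 in BATKO mice. The tables of the other experiments were not used here.

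The 7 groups of the 30 mice were taken from the labels and fitted together in R (4.3.3) with edgeR (4.0.16, limma 3.58.1), by TMM scaling and the quasi-likelihood test. Genes were kept where the normalized count averaged more than 10, and p-values were adjusted by the Benjamini-Hochberg method over all of them, with a threshold of 0.05. Contrasts were TH at 24 h minus PTU in BATKO and in WT mice, and the difference of the 2. A normalized count is a count divided by its library's TMM size relative to the others. Intervals are 95% intervals of the fit. The floor of 3 counts covers counting error only. Single values per mouse were compared by two-sided exact permutation tests over all 252 splits. DESeq2 (1.42.0), RLE size factors, other filters, smaller sets of mice and leaving out each mouse were alternatives. All 20 pairs of BATKO mice within a group differed by more than sampling noise (chi-square per degree of freedom at least 8.66, median 29.5), so each was kept as 1 replicate.

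The genes, lists and comparisons were chosen with earlier results of these data known. Genes named were 12 known genes, the 4 genes with the largest WT change in each direction (mean above 50, no overlap in WT, interaction called), and called BATKO genes, of which there were none. In their place, the 12 genes with the lowest p in BATKO mice, 2 members per list with the lowest WT adjusted p, and Aspg, Apln, Bhlhb9, Loxl1, Id2, Dancr, Zfas1 and mt-Atp6 were named after the values were seen. Promoter windows came from RefSeq (GRCm38.p6).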

Additional observations from a re-analysis of the deposited data

Results flagged for a closer look

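Single mice stood apart in 16 of 188 sets of 4 or 5 mice, that is, the highest or lowest lay far from its nearest neighbour for the group's range. The sets covered the genes named with a response and the mitochondrial and muscle measures. The rule's chance rate of about 1 in 20 (5%) is no yardstick here, as sets share mice and some genes were picked after their values were seen. In the sets flagged in Gm32468 and 9030619P08Rik, all other mice were at 0. PTU 4 stood apart in 6 genes that rose in WT mice, 3 of them picked by their WT change and 3 after their values were seen. Slco4a1 was at 32.7 normalized counts in PTU 4 and at 1.92 in the next control, Gm32468 at 10.1 and 0, and 9030619P08Rik at 3.35 and 0. Aspg was at 1391 in PTU 4 and 329 in the next control, Loxl1 at 121.5 and 47.0, and Id2 at 302.5 and 155. In thermogenic genes, Ucp1 was at 31618 in TH 15 and 18348 in the next treated mouse, Dio2 at 381 in PTU 17 and 220.1 in the next control, and Ppargc1a at 669 in TH 10 and 322 in the next treated mouse. Desi1 was at 129 in TH 9 and 103 in the next treated mouse, and Hspb1 at 424 in TH 9 and 335 in the next. Gm16464 was at 61.7 in PTU 11 and 49.4 in the next control. Among WT mice, B3galt2 was at 4037 in control B3 and 2814 in the next, 9030619P08Rik at 2.303 in control B5 and 0 in the next, Hspb1 at 231 in control B5 and 150.2 in the next, and Gm5990 at 8.76 in the 24 h mouse B27 and 15.0 in the next.

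The response to TH differed between BATKO and WT mice, by the interaction term of the edgeR fit on the log2 scale as BATKO minus WT, in the following genes. Hr had -4.07, Desi1 -1.72 and Trp53inp2 -1.01. Among genes chosen because their WT change was large and their interaction called, Gm32468 had -9.16, 9030619P08Rik -7.21, Slco4a1 -5.07 and Fndc5 -5.32, while B3galt2 had 3.31, Gpat3 3.76, Car3 3.65 and Nabp1 3.24. Without PTU 4 the first 3 of these were -4.996, -4.48 and -2.42 and were no longer called, and those of Gm32468 and 9030619P08Rik, which were at or under the floor in WT controls, are fitted values that depend on the prior count. Among list members picked by their WT p, Rxrb had -1.15, Bcl3 -2.50, Gpd2 -1.33 and Hspb1 -1.39, while Cidea had 0.82 and Adipoq 2.001. Of genes picked by their BATKO p, Gas5 had 0.67 and Raver2 -0.76.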

How the results depend on the processing

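No gene was called higher in BATKO mice under any alternative, and none lower but Gm13991 without TH 9. The alternatives were DESeq2, RLE size factors, no filter, a mean above 50, TMM without mitochondrial genes, fits of only the 10 BATKO mice, and leaving out each mouse. Called counts over the leave-one-out fits ran from 0 to 0 (higher) and 0 to 1 (lower), and counts at an unadjusted p under 0.05 from 462 (without TH 8) to 1007 (without TH 15), with 945 without PTU 4. Without a filter the unadjusted count was 1223 of 31281 genes, as more genes were tested. The lowest adjusted p was 0.0776 with DESeq2 and 0.247 with a mean above 50. DESeq2 on the 10 BATKO mice was chosen after seeing the data. WT counts ran from 1745 to 2277 (higher) and 1506 to 1968 (lower) without 1 mouse, and interaction counts from 494 to 855 (higher) and 711 to 1246 (lower).

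For the genes called in WT mice, the BATKO median ran from 0.018 to 0.12 (higher genes; 55.0% to 76.6% of the same sign) and from -0.12 to -0.065 (lower genes; 64.0% to 77.4%) without 1 mouse. For the changes and interactions given for named genes, 493 of 494 fits of the other alternatives kept the direction and the side of the threshold, and without a filter the Raver2 interaction was no longer called. Leaving out 1 mouse ended a call in 10 of 1000 fits, made one in 6 and turned the direction of uncalled values in 32. Those BATKO log2 fold changes ran from -0.064 to 0.23 in Thrsp, -0.27 to 0.018 in Me1, -0.38 to 0.18 in Dio2, -0.065 to 0.29 in Ucp1, -0.058 to 0.42 in Stat5a, -0.16 to 0.090 in Trp53inp2, -0.025 to 1.80 in Fndc5, -1.04 to 0.14 in Nabp1, -0.0094 to 0.31 in Gpd2 and -0.16 to 0.027 in Cidea, and interactions from -0.084 to 0.14 in Thrb and -0.18 to 0.077 in Dancr. The causes were not tested.

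No paired analysis was possible because BATKO TH mice 7, 8, 9, 10 and 15 and BATKO controls 2, 3, 4, 11 and 17 share no number, and numbers shared with WT mice belong to other animals. Precision was limited by the spread between mice, with a median standard error of 0.16 (log2) per gene in BATKO mice.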

Other observations

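The other gene lists of BAT held 0 calls in BATKO mice, and the summed level of each overlapped between TH and PTU mice. They stand beside 48.5% of all genes above 0 in BATKO mice, and 15.9% called higher and 14% lower in WT mice. Mitochondrial fatty acid oxidation had 6 of 28 genes above 0 in BATKO mice and a median log2 fold change of -0.13, against 2 called higher and 7 lower in WT mice (median -0.13). Lipolysis and fatty acid uptake had 9 of 26 genes above 0 in BATKO mice and a median log2 fold change of -0.066, against 6 called higher and 10 lower in WT mice (median -0.19). The TCA cycle and pyruvate entry had 13 of 31 genes above 0 in BATKO mice and a median log2 fold change of -0.027, against 10 called higher and 2 lower in WT mice (median 0.17). The mitochondrial ribosome had 57 of 76 genes above 0 in BATKO mice and a median log2 fold change of 0.077, against 36 called higher and 2 lower in WT mice (median 0.26). The 13 protein genes of the mitochondrial genome had a BATKO median of -0.059 with 3 above 0, and 0 were called in either genotype, but some of them, such as mt-Atp6, were near 0 in WT mice. Adrenergic and cAMP signalling had 5 of 20 genes above 0 in BATKO mice and a median log2 fold change of -0.15, against 0 called higher and 8 lower in WT mice (median -0.52), and adipokines and secreted factors had 12 of 21 genes above 0 in BATKO mice and a median log2 fold change of 0.027, against 9 called higher and 4 lower in WT mice (median 0.52).

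Housekeeping and signalling lists had medians between -0.085 and 0.039 in BATKO mice. Cholesterol synthesis had 10 of 23 genes above 0 in BATKO mice and a median log2 fold change of -0.024, against 5 called higher and 2 lower in WT mice (median 0.37). The circadian clock had 12 of 19 genes above 0 in BATKO mice and a median log2 fold change of 0.034, against 5 called higher and 1 lower in WT mice (median -0.027). Genes induced by glucocorticoids and FOXO had 13 of 24 genes above 0 in BATKO mice and a median log2 fold change of 0.039, and the insulin and IGF list had 10 of 21 genes above 0 in BATKO mice and a median log2 fold change of -0.085. The unfolded protein and integrated stress response had 7 of 25 genes above 0 in BATKO mice and a median log2 fold change of -0.063. Medians of the cell cycle, matrix, amino acid catabolism and proteasome and autophagy lists were 0.012, -0.032, 0.025 and -0.00060.

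Markers of other cells were present in all BATKO libraries at levels that overlapped between the groups. White adipocyte markers summed to 50.9 to 83.9 CPM in the controls and 52.1 to 83.9 CPM after TH, and macrophage markers to 44.3 to 68.7 CPM in the controls and 45.9 to 68.1 CPM after TH. Mural cell markers summed to 407 to 441 CPM in the controls and 377 to 494 CPM after TH. Fibroblast and progenitor markers summed to 365 to 492 CPM in the controls and 328 to 489 CPM after TH. Schwann cell markers summed to 121 to 208 CPM in the controls and 127 to 162 CPM after TH, and erythroid markers to 208 to 572 CPM in the controls and 294 to 401 CPM after TH. Of 14 lymphocyte markers 1 passed the limit on low counts, as did 1 of 6 mesothelial markers. The part of any of these cells in the responses above was not tested.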
